A study of Mus musculus with 3 samples.

Results

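Genes of vesicle coats, SNAREs, tethers and endosomal sorting were compared between ureteric tree cells and the other cells of the embryonic mouse kidney. They were taken by gene symbol alone, as every gene on the array whose symbol begins with Vps, Snx, Stx, Sec or Snap followed by a digit, with Vamp, Trappc or Tmed, or with the symbols of coatomer subunits, clathrin chains or adaptor (AP) subunits. The array held 148 such genes. Of these, 58 had a value on all 3 arrays and form the set described here, among 3915 genes measured on all 3; 30 more had values on 1 or 2 arrays and 60 had none. Kidneys of HoxB7-GFP transgenic embryos at 15.5 days post coitum (dpc), of both sexes pooled, were sorted by fluorescence into GFP+ and GFP- cells. The Hoxb7 promoter drives green fluorescent protein in the ureteric tree, the branching epithelium that later forms the collecting ducts. The GFP- fraction thus held the remaining sorted cells of the same transgenic kidneys. How pure either fraction was could not be assessed here. Amplified RNA of both fractions was hybridised together on each of 3 two-colour oligonucleotide arrays, with no common reference. Whether the dyes were swapped between arrays is not stated in the sources used here. Each value is a log2 ratio, GFP+ over GFP-; this direction is likely rather than certain, because no source used here states the dyes.

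Proteins that enter the secretory pathway cross the endoplasmic reticulum (ER) membrane through the Sec61 channel and leave the ER in vesicles coated by COPII. COPI coats carry proteins back from the Golgi, and clathrin with its AP adaptors builds vesicles at the plasma membrane, the trans-Golgi network and endosomes. Tethers such as TRAPP capture vesicles, SNAREs fuse them, and retromer, sorting nexins and the ESCRT complexes decide which cargo is recycled and which reaches lysosomes. In collecting duct epithelium this machinery is known for carrying the water channel aquaporin-2 to the cell surface, a step in which the SNARE Vamp8 takes part in mice.

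The symbols do not all name vesicle proteins. Vps72 is a subunit of chromatin remodelling complexes, Sec11a and Sec11c are catalytic subunits of signal peptidase, Sec61b and Sec61g belong to the translocation channel, and Sec14l1 resembles a yeast lipid transfer protein. The other 52 genes fit the name of the set.

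None of the 58 genes passed the test between the fractions. By limma with Benjamini-Hochberg adjustment over all 3915 genes, 0 of 58 were higher and 0 lower at an adjusted p below 0.05, against 1.38% of all genes higher and 1.4% lower (2.78% in either direction). The smallest adjusted p in the set was 0.184, for Vps36. At an unadjusted p below 0.05 limma gave 3 higher (Vps36, Trappc6a and Vamp8), against 8.45% of all genes, and 3 lower (Sec31a, Ap2m1 and Stx2), against 6.41%. Together these were 10.3% of the set, where 14.9% of all genes passed. The ordinary one-sample statistic, which shares no variance between genes, gave 0 after adjustment (0.0255% of all genes) and, before it, 2 higher (7.25% of all genes) and 2 lower (4.78%).

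The ratios were small and balanced around 0. Means ran from -0.59 for the clathrin light chain Clta to 0.73 for the ESCRT-II subunit Vps36, with 29 positive and 29 negative. Over all genes 2148 were positive and 1767 negative. Without array 1 the counts in the set were 33 and 25, and with arrays centred and scaled 25 and 33. The median of the set was 0.0055, beside 0.034 over all genes. The median size of a mean, whatever its sign, was 0.194 in the set and 0.198 over all genes. No mean reached 1, a 2-fold difference, while 3.04% of all genes did. The limma 95% interval lay inside a 2-fold difference either way for 51 of the 58 genes (87.9%, against 84.2% of all genes). The exceptions were Vps36, Trappc6a and Vamp8 on the high side, Clta, Ap1m1 and Stx4a on the low side, and Vps37a, whose arrays disagreed most. The smallest mean of any gene that passed was 0.89 in size, larger than every mean of the set. Since whole cell fractions were compared, fewer cells of a type and less RNA per cell cannot be told apart.

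**Figure D1:**
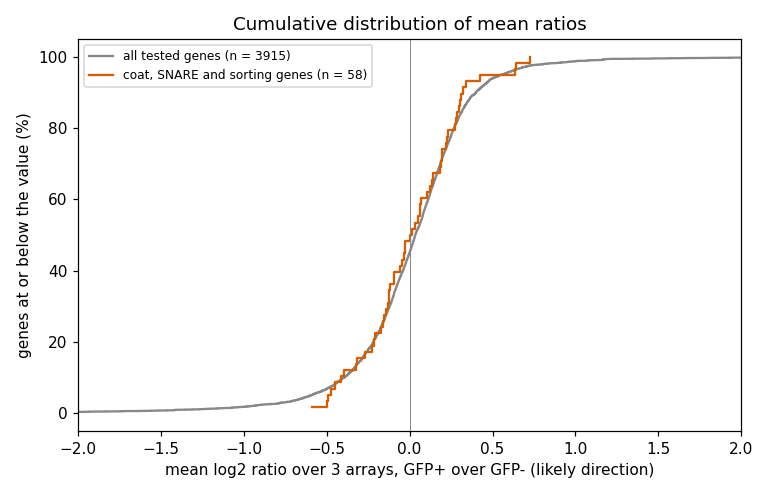
Cumulative share of genes (percent, vertical axis) at or below each mean log2 ratio over 3 arrays (horizontal axis, drawn from -2 to 2, so genes beyond are not shown) for the 58 coat, SNARE and sorting genes (orange) and all 3915 tested genes (grey). The orange curve follows the grey one through the middle and ends at -0.59 and 0.73, while the grey curve runs on in both directions. A set of 58 genes tends to span less than 3915 do, so the end points are no measure of spread. The 5th and 95th percentiles were -0.48 and 0.45 in the set, beside -0.59 and 0.56 over all genes.

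The 3 arrays did not carry the same information about these genes. Across the 58 genes, which are not independent replicates, arrays 2 and 3 ran together (Pearson's r = 0.904), whereas array 1 ran slightly against arrays 2 (r = -0.148) and 3 (r = -0.09). Over all 3915 genes the same correlations were 0.883, 0.08 and 0.277. The sign was the same on all 3 arrays for 18 of the 58 genes, 11 positive (19%, against 20.7% of all genes) and 7 negative (12.1%, against 15.3%). For 33 genes (56.9%, against 50% of all genes) arrays 2 and 3 shared a sign and array 1 had the other. Without array 1, 17 of the 58 were higher and 12 lower by limma, but so were 27.5% and 18.8% of all genes, and the shares in the set, 29.3% and 20.7%, were close to that background. With limma's array weights, which gave array 1 the lowest weight, 17 were higher and 13 lower, against 33.4% and 22% of all genes. Whether each array had its own pool of embryos is not stated in the labels, and these p-values measure the spread between arrays only, which may be technical.

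**Figure D2:**
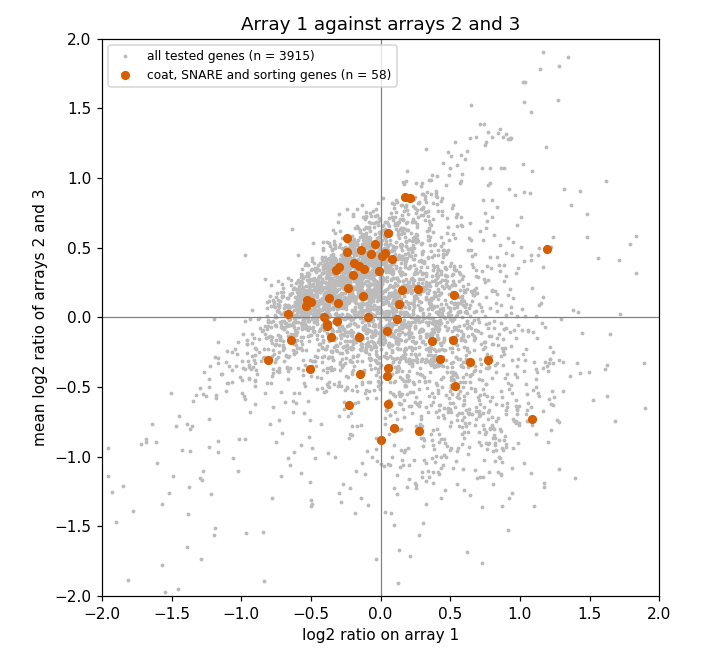
Log2 ratio on array 1 (horizontal axis) against the mean log2 ratio of arrays 2 and 3 (vertical axis) for the 58 coat, SNARE and sorting genes (orange) and all 3915 tested genes (grey); both axes are drawn from -2 to 2 and genes beyond are not shown. The orange points form no rising line. For 33 of the 58 genes array 1 has the sign opposite to both others, though the vertical axis shows only the mean of those 2 arrays.

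At the entry to the secretory pathway, array 1 and the other arrays differed in sign for most measured genes, and none passed. Sec61b, the beta subunit of the translocation channel, had ratios of -0.12, 0.38 and 0.31 on arrays 1, 2 and 3 (mean 0.19 ± 0.27, SD, n = 3 arrays). Sec61g, the gamma subunit, had -0.3, 0.37 and 0.36 (0.14 ± 0.38). Both were thus positive on 2 arrays and negative on the other. The pore subunit Sec61a1 had no value on array 2, with -0.12 and 0.37 on arrays 1 and 3, and Sec62, an accessory of the channel, had a value on array 2 only (0.11). Of the signal peptidase subunits, Sec11a had -0.24, 0.48 and 0.46 (0.23 ± 0.41), and its paralog Sec11c had 0.64, -0.49 and -0.15 (-0.0004 ± 0.58), the reverse pattern, positive on array 1 alone. Sec14l1 was at 0.011 on array 1 and at 0.44 on both others (0.3 ± 0.25), so all 3 of its values were above 0.

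COPII subunits, which together build the cage of vesicles leaving the ER, had 1 mean above 0 and 3 below, and 2 on each side without array 1. Sec23b, of the inner coat, had -0.24, 0.74 and 0.41 (0.3 ± 0.5, limma adjusted p = 0.588), the highest mean of the 4 measured. Sec31a, of the outer coat, had -0.23, -0.69 and -0.56 (-0.49 ± 0.24, limma adjusted p = 0.263), negative on every array, and its 95% interval ran from -0.91 to -0.079. Sec31a and Sec23b thus lay apart on arrays 2 and 3 and at nearly the same ratio on array 1. The cargo-binding subunit Sec24b was also negative throughout (-0.17 ± 0.19), and Sec13, which pairs with Sec31 in the cage, had a mean of -0.028 ± 0.3. In COPI, the coat of retrograde vesicles, Cope had -0.14, 0.63 and 0.33 (0.27 ± 0.39) and Copz1 -0.67, 0.066 and -0.025 (-0.21 ± 0.4), with Copg1 between them (-0.035 ± 0.25). All 3 coatomer subunits were lower on array 1 than on arrays 2 and 3, and without array 1 all 3 means were above 0. The p24 proteins are cargo receptors that cycle between ER and Golgi, and only 2 of the 10 on the array were measured throughout. Tmed3 had 0.052, -0.37 and -0.36 (-0.23 ± 0.24), and Tmed8 -0.31, 0.047 and -0.092 (-0.12 ± 0.18). Each changed sign between arrays.

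TRAPP complexes tether vesicles at the Golgi and activate Rab1. Of 7 measured genes, 6 had a mean above 0 (2148 of 3915 over all genes), with a median of 0.14 (all genes 0.034). The count was 5 of 7 with arrays centred or without array 2, and 4 of 7 with arrays centred and scaled or without array 1. Trappc6a had 0.21, 0.92 and 0.79 on arrays 1, 2 and 3 (0.64 ± 0.38 or 1.56-fold, limma adjusted p = 0.213). Trappc5, another subunit, followed with a mean of 0.42 ± 0.33 and Trappc4 with 0.18 ± 0.029; these 3 were positive on all 3 arrays. Trappc6b, the paralog of Trappc6a, had -0.2, 0.52 and 0.081 (0.14 ± 0.36), below 0 on array 1 and, as a mean, without array 2 (-0.057). The lowest was Trappc2l at 0.043, -0.15 and -0.037 (-0.049 ± 0.098), opposite to Trappc6b on each array. Trappc13 was opposite to it too, at 0.52, -0.21 and -0.11 (0.067 ± 0.4, and -0.16 without array 1), and Trappc12 lay near 0 (0.03 ± 0.24). None of the 7 passed.

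Clathrin and its adaptors had means below 0 for 7 of 8 measured genes (1767 of 3915 over all genes), with a median of -0.23 (all genes 0.034). Array by array the median was -0.33, -0.19 and -0.26. Without array 1, 6 of 8 were below 0 and the median was again -0.23, and with arrays scaled or quantile normalized all 8 were. Clta, a light chain of the clathrin lattice, had 0.0014, -1.24 and -0.53 (-0.59 ± 0.62 or 1.5-fold lower, limma adjusted p = 0.372). It was therefore at 0 on array 1 and low on the other 2. The heavy chain Cltc, which forms the lattice itself, had -0.5, 0.062 and 0.16 (-0.094 ± 0.36), and its mean turned to 0.11 without array 1. Cltc was opposite in sign to Clta on each array, but on array 1 Clta was too near 0 to have a direction. Among AP-1 subunits, which act at the trans-Golgi network and endosomes, Ap1m1 had a mean of -0.5 ± 0.52 and Ap1b1 -0.14 ± 0.055. Ap2m1, the cargo-binding subunit of the plasma membrane adaptor AP-2, was negative on every array (-0.48 ± 0.29, limma adjusted p = 0.298), as were Ap3s1 of AP-3 (-0.32 ± 0.3) and Ap1b1. The other AP-3 subunit, Ap3d1, had -0.095 ± 0.39. Ap4s1, of the AP-4 complex that acts at the trans-Golgi network, was the 1 gene of the family with a mean above 0, at 0.77, -0.18 and -0.43 (0.052 ± 0.63); that sign turned without array 1 (-0.31), with arrays scaled (-0.048) and with quantile normalization (-0.017).

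**Figure D3:**
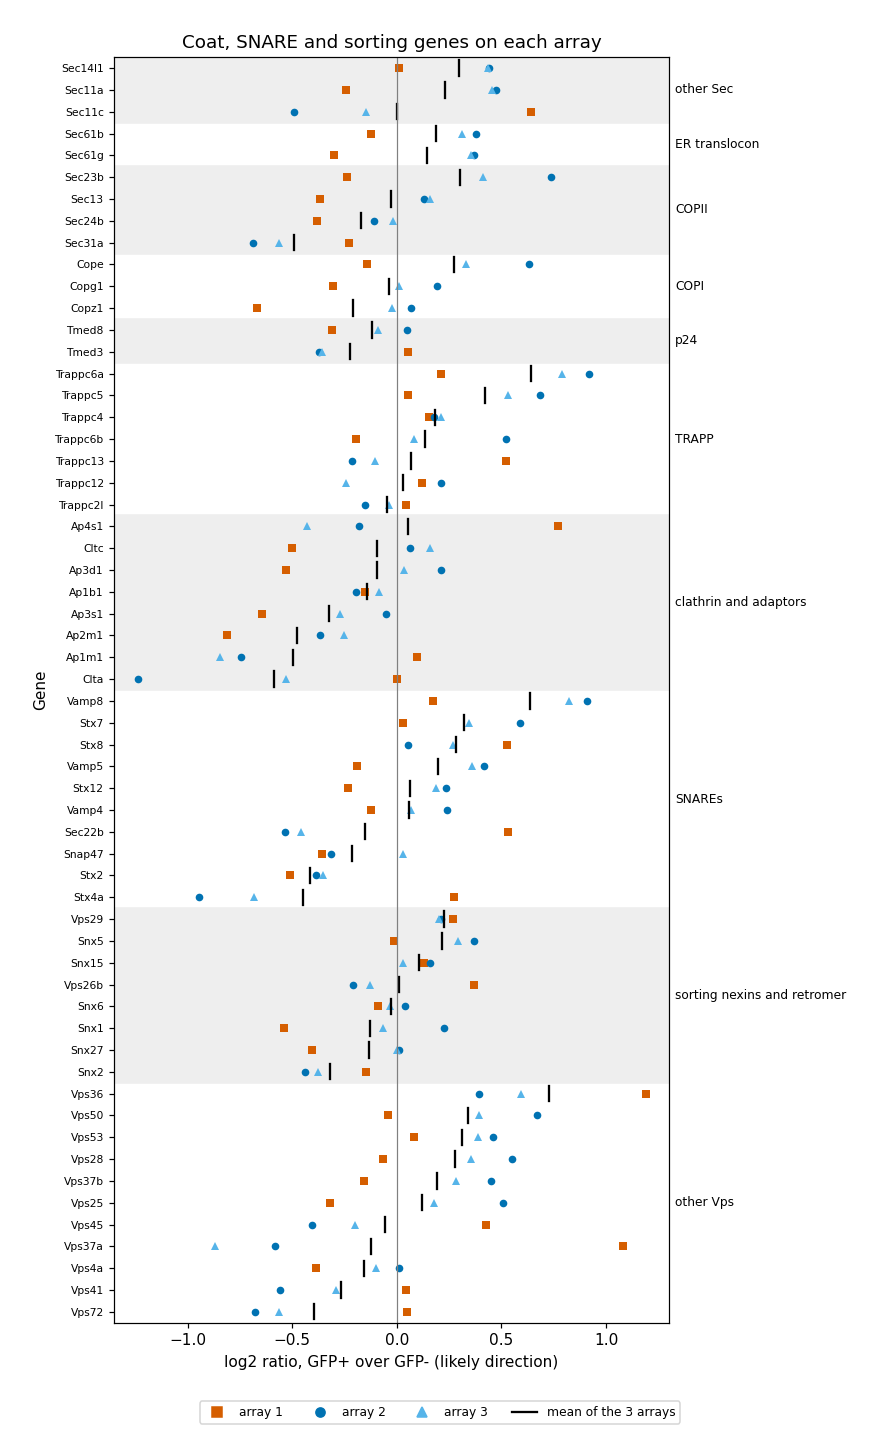
Log2 ratio of each of the 58 genes (rows, grouped by family) on array 1 (orange squares), array 2 (dark blue circles) and array 3 (light blue triangles), with the mean as a black bar. Arrays 2 and 3 lie close together for most genes and array 1 often across 0 from them; all 3 values lie on one side for 18 genes, including Vps36, Trappc6a and Vamp8 above 0 and Sec31a, Ap2m1 and Stx2 below.

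SNAREs, the proteins that pull membranes together for fusion, had 6 means above 0 and 4 below (5 and 5 without array 2 or without array 3), and none passed. Vamp8, a SNARE of late endosomes and of regulated secretion, had 0.17, 0.91 and 0.82 (0.63 ± 0.4 or 1.55-fold, limma adjusted p = 0.228). Stx7, a syntaxin of late endosomes, had 0.03, 0.59 and 0.34 (0.32 ± 0.28), and Stx8, which joins it in the same fusion complex, had 0.53, 0.055 and 0.27 (0.28 ± 0.24). Vti1b, the remaining SNARE of that complex, is no member of the symbol set and stood in the list of SNARE partners, at 0.18, 0.39 and 0.33 (0.3 ± 0.11). All 12 values of these 4 genes were positive. The quartet was singled out after its values were seen, 20.7% of all genes were positive on all 3 arrays, and limma adjusted p lay between 0.228 and 0.511.

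Since these 4 genes encode the partners of 1 complex and shared their sign, the 250 bases upstream of their RefSeq starts (GRCm38.p6, 5′ to 3′ on the strand of the gene) are printed; capitals mark CCAAT, the letters bound by NF-Y, and GGGCGG, the GC box, on either strand, and CACGTG, an E-box, was searched too. The windows are Vamp8 at chr6:72390668-72390917 (minus strand), Stx7 at chr10:24149039-24149288 (plus strand, the first of 2 listed), Stx8 at chr11:67966208-67966457 (plus strand) and Vti1b at chr12:79172459-79172708 (minus strand).
Vamp8: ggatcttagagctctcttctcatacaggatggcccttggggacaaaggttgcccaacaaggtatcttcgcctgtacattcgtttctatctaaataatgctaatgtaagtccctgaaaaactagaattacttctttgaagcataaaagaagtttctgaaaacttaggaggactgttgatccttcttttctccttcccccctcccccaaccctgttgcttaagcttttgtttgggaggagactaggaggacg
Stx7: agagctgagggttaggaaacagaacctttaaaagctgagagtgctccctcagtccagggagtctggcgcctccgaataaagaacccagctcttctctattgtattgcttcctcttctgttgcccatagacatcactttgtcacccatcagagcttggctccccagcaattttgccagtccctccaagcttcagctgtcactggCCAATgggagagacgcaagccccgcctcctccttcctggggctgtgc
Stx8: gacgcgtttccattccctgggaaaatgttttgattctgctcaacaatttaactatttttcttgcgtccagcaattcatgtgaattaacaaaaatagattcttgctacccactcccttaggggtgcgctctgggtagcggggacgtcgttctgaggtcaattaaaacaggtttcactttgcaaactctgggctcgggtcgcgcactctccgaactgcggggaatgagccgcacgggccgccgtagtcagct
Vti1b: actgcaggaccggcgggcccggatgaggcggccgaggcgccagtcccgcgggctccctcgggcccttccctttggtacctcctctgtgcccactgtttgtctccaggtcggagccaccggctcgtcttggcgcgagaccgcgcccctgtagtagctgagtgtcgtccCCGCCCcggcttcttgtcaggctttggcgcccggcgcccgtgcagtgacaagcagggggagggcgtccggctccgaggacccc

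None of the 3 motifs searched was in more than 1 of the 4 windows. CCAAT was found in that of Stx7 and GGGCGG in that of Vti1b, and neither these letters nor CACGTG were in those of Vamp8 and Stx8. The G and C content ran from 43.6% for Vamp8 to 71.6% for Vti1b. Of the 58 genes, 47 matched the promoter table, with 54 windows. CACGTG was in 5 of these (9.26%), CCAAT in 19 (35.2%) and GGGCGG in 28 (51.9%), beside 8.13%, 37% and 57.9% of 3885 windows of all tested genes, and 6.02%, 33.8% and 32.7% of all 32851 windows in the table. Each share in the set thus lay near that of the tested genes.

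Stx2, a syntaxin of the plasma membrane, had -0.51, -0.39 and -0.35 (-0.42 ± 0.082, limma adjusted p = 0.285), with a 95% interval from -0.79 to -0.043. Its 3 values lay close together below 0. Stx4a, a basolateral syntaxin in many epithelia, had 0.28, -0.95 and -0.68 (-0.45 ± 0.64, limma adjusted p = 0.495), below 0 on arrays 2 and 3 only. Of 27 SNARE genes on the array, 10 were measured throughout, and the other 5 lay nearer to 0. Vamp5 had a mean of 0.19 ± 0.34, the trans-Golgi SNARE Vamp4 0.061 ± 0.18 and Snap47 -0.21 ± 0.21. The recycling endosome syntaxin Stx12 was opposite to Stx4a on each array, at -0.23, 0.23 and 0.19 (0.062 ± 0.26), and its mean lay below 0 without array 2 (-0.024) and without array 3 (-0.0003). Sec22b, a SNARE of ER to Golgi transport, had 0.53, -0.54 and -0.46 (-0.15 ± 0.6), but a second probe of it gave -0.77 and 0.3 on arrays 1 and 2, opposite on both, so its direction was not settled even within an array.

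Retromer and sorting nexins lift cargo out of endosomes for return to the Golgi or the cell surface. Vps29, the retromer subunit shaped like a phosphoesterase, had 0.27, 0.21 and 0.2 (0.23 ± 0.035, limma adjusted p = 0.554), the second most even gene of the set after Trappc4. Its partner Vps26b had a mean of 0.011 ± 0.31, and its 2 probes went apart, with -0.23 against 0.97 on array 1 and 0.14 against -0.4 on array 3. Snx2, which pairs with Snx5 or Snx6 to tubulate endosomes, had -0.15, -0.44 and -0.38 (-0.32 ± 0.15, limma adjusted p = 0.43) and was negative throughout. Its close paralog Snx1, which takes the same partners, changed sign between arrays (-0.13 ± 0.38), while the partners had 0.22 ± 0.2 for Snx5 and -0.027 ± 0.065 for Snx6. Snx15, an endosomal sorting nexin, was positive throughout at 0.13, 0.16 and 0.03 (0.11 ± 0.068), and Snx27, which returns receptors to the surface with retromer, had -0.13 ± 0.24. The median of these 8 genes was -0.0079 (0.042 without array 1), and each 95% interval in the family reached across 0.

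ESCRT complexes sort ubiquitinated membrane proteins into the vesicles of multivesicular bodies. Vps36, the ubiquitin-binding subunit of ESCRT-II, had 1.19, 0.39 and 0.59 (0.73 ± 0.42 or 1.65-fold, limma adjusted p = 0.184), the highest mean of the 58 and above 0 on each array. Its partner Vps25 had 0.12 ± 0.41 and was negative on array 1, and Snf8, which completes ESCRT-II and stood in a partner list, had 0.61, -0.086 and 0.16 (0.23 ± 0.35). The other ESCRT-II subunits were thus nearer to 0 and mixed in sign. In ESCRT-I, Vps28 had -0.066, 0.55 and 0.35 (0.28 ± 0.32), and Vps37b -0.16, 0.45 and 0.28 (0.19 ± 0.31). Vps37a, the paralog of Vps37b, was opposite to both on each array and had the widest spread of the set, at 1.08, -0.58 and -0.87 (-0.12 ± 1.05), and its second probe gave -0.5 and -0.034 on arrays 2 and 3. Its mean was -0.73 without array 1 but 0.11 without array 2 and 0.25 without array 3. Vps4a, the ATPase that releases ESCRT from membranes, had -0.16 ± 0.2.

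Tethers of the endosomal system completed the set. Vps53, of the GARP and EARP tethers, was positive on all 3 arrays (0.31 ± 0.2), and Vps50, which is particular to EARP, had 0.34 ± 0.36 with array 1 just below 0. Vps45, a partner of endosomal syntaxins, had -0.059 ± 0.43. Vps41, a subunit of the HOPS tether that fuses endosomes with lysosomes, had 0.043, -0.56 and -0.29 on the 3 arrays, a mean of -0.27 ± 0.3. Vps72, the chromatin protein, had 0.05, -0.68 and -0.56 (-0.4 ± 0.39), the lowest mean among the Vps genes measured on all 3 arrays.

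The lowest mean ratios of any matching symbol with at least 2 values were those of 2 further HOPS subunits, named after their values were seen. Neither had a value on array 1, so these means cover arrays 2 and 3 only. Vps11 had -2.01 and -1 on arrays 2 and 3, and Vps16 -1.66 and -0.72. Both were far below 0 on each array that measured them, and both lay further below 0 on array 2 than on array 3. In limma with genes on at least 2 arrays, which fits them without array 1, their adjusted p was 0.0851 and 0.14, so neither passed among 4745 genes (3.06% called in either direction). Vps33a, another subunit, had a value on array 3 only (-0.17). In the same fit Snx24, a sorting nexin, had 0.74 and 0.44 on arrays 2 and 3 (limma adjusted p = 0.312), and the other 9 genes with 2 values had means between -0.35 and 0.18. The 18 genes with 1 value ran from -0.62 for Ap4b1, an AP-4 subunit, to 0.65 for Snx7.

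Genes that work with these proteins did not pass on the 3 arrays either. In 5 lists of partners (GTPases and coat recruitment, SNARE partners and fusion factors, Rab GTPases, ESCRT and lysosomal sorting, ER entry), 61 of 192 genes were measured on all 3 arrays. By limma with adjustment over all genes, 0 of these 61 were higher (against 1.38% of all genes) and 0 lower (against 1.4%). At an unadjusted p below 0.05 limma gave 1 higher (1.64%, against 8.45% of all genes) and 3 lower (4.92%, against 6.41%), and the ordinary statistic also gave 1 and 3 (7.25% and 4.78% of all genes). Without array 1, 12 were higher (19.7%, against 27.5% of all genes) and 15 lower (24.6%, against 18.8%). With array weights 13 were higher (21.3%, against 33.4% of all genes) and 16 lower (26.2%, against 22%). None passed without array 2 or without array 3, where 3.04% and 1.89% of all genes did. The median of the partner means was -0.074. Of 16 measured genes of GTPases and coat recruitment (median -0.11), Arf4, a GTPase that recruits coats at the Golgi, had the lowest mean, with -0.91, -0.35 and -0.55 (-0.6 ± 0.28, limma adjusted p = 0.201). The related Arf5 had -0.26 ± 0.41 and Cnih4, an ER export receptor, 0.25 ± 0.26. Among 9 SNARE partners (median -0.024), the Golgi SNARE Gosr2 was positive on each array at 0.3, 0.75 and 0.83 (0.63 ± 0.28, limma adjusted p = 0.184). Scamp2, a carrier membrane protein, had 0.3, -1.31 and -0.98 (-0.67 ± 0.85), and Vti1b, described above, came next in size.

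Of 10 measured Rab GTPases (median 0.01), Rab31, which acts between the trans-Golgi network and endosomes, was negative on every array, at -0.99, -0.5 and -0.39 (-0.63 ± 0.32, limma adjusted p = 0.198). Rab3d, a Rab of secretory granules, had 0.33 ± 0.13 and Rab14 0.25 ± 0.17, both positive throughout. Among 14 ESCRT and lysosomal sorting partners (median -0.061), the ESCRT-III subunit Chmp2a had 1.89, -0.17 and -0.49 (0.41 ± 1.29), high on array 1 alone, while its paralog Chmp2b had 0.0029, 0.65 and 0.57 (0.41 ± 0.35). Sh3gl1, an endophilin, had the lowest mean of that list (-0.59 ± 0.93). The 12 genes of ER entry had the lowest median of the 5 lists (-0.28). Ssr3, of the translocon-associated TRAP complex, had 0.13, -1.5 and -1.84 (-1.07 ± 1.05, limma adjusted p = 0.276), and its partner Ssr2 0.43, -0.95 and -1.21 (-0.58 ± 0.88). The TRAP subunit Ssr4 ran the other way, at -0.11, 0.79 and 0.66 (0.45 ± 0.48), so 3 subunits of one complex disagreed and each had array 1 across 0 from the others.

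**Figure D4:**
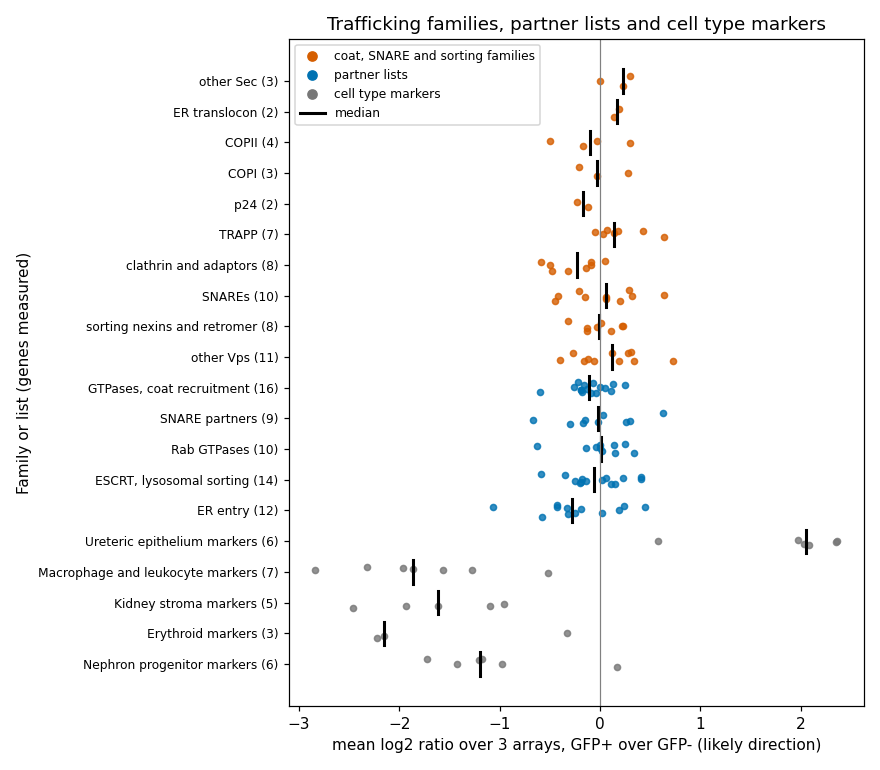
Mean log2 ratio over 3 arrays (horizontal axis) of every measured gene in the 10 coat, SNARE and sorting families (orange), 5 partner lists (blue) and 5 cell type marker lists (grey), with the median of each as a black bar and the number of genes in brackets; points are spread vertically for sight only. The trafficking genes lie between -1.07 and 0.73 around 0, while ureteric markers reach 2.36 and macrophage markers -2.84.

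The same arrays separated markers of the sorted cells widely. These lists were chosen with earlier results of these data known, so the separation is no independent check of the arrays. Over all genes limma called 1.38% higher and 1.4% lower. Of 21 listed ureteric epithelium markers, 5 of the 6 measured rose (median 2.05). Of 15 macrophage and leukocyte markers 7 were measured and 5 fell (median -1.86), as did 4 of 5 stroma markers (-1.61), 2 of 3 erythroid markers (-2.15) and 3 of 6 nephron progenitor markers (-1.19), by limma over all genes. All 5 medians lie beyond the highest and lowest means of the coat, SNARE and sorting genes measured on all 3 arrays. Vps11, measured on arrays 2 and 3 only, had a mean of -1.5, below the nephron progenitor median. All 6 ureteric markers were positive on every array, and all 7 macrophage, 5 stroma and 3 erythroid markers and 5 of the 6 nephron progenitor markers were negative on every array. The part of cell composition in the ratios of the trafficking genes, of which 11 were positive and 7 negative on every array, was not tested. Only ratios were analysed here, so the level of a marker or of a trafficking gene in each fraction is not given.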

How the data were processed

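Values were used as deposited. The authors' log2 ratios come, per the labels, from images read with Imagene 5.5 and a Lowess curve with 20% of the points per fit that adjusted the control channel, with control values below 10 raised to 10; the titles call the values filtered, by a rule not given in the sources used here. Base 2 was checked: back-transformed with it, 99.97% of values fell within 0.01 of whole thousandths. Probes with 1 gene symbol in the platform annotation (17252) were averaged per gene and array, and named by their current symbol in the GRCm38.p6 RefSeq table. Members were chosen by the platform's symbols; choosing by current symbols changed 0 memberships. Mean ratios of 3915 genes were compared with 0 in limma 3.58.1 under R 4.3.3 (intercept only, two-sided, Benjamini-Hochberg, adjusted p below 0.05), a procedure tested on simulated data. On average 6.08% of the simulated calls were false. The simulated noise was independent and equally wide on all 3 arrays, so it does not cover the difference of array 1 from the others. Errors are SDs over arrays. The number of arrays limits the precision. Since the dyes are not stated, a dye effect of a gene cannot be told apart from a difference between cells. Values on each array are given for the highest and lowest gene of each family and both of a pair of paralogs or subunits opposite in sign on each array. The 3 means of largest size in each partner list are named, not all of them with values on each array. Sec22b and Vps41 were added after their values were seen, and the partner Snf8 was given beside its complex outside this rule. Members, lists and alternatives were chosen with earlier results of these data known.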

Additional observations from a re-analysis of the deposited data

How the results depend on the processing

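The count of coat, SNARE and sorting genes past the threshold depended on array 1. It was 0 higher and 0 lower without array 2, without array 3, with arrays centred, scaled or quantile normalized, with arrays 2 and 3 averaged to 1 replicate, with genes on at least 2 arrays, with each probe tested, with a robust variance model, with the ordinary statistic, with members chosen by current symbols (the same 58 genes), and without the 6 symbols outside trafficking (chosen after seeing the data). These settings called only 0.0255% (ordinary statistic) to 4.09% (quantile normalization) of all genes in either direction, so a count of 0 lay near that background. Leaving out each array in turn gave 0 to 17 higher and 0 to 12 lower. With limma's array weights it was 17 and 13; the weights were estimated gene by gene, since the default estimate did not converge. These settings drop or down-weight array 1 and called 50% and 51.7% of the set, near the 46.4% and 55.4% of all genes, and the cause of the difference between arrays was not tested. The median of the set stayed between -0.055 and 0.087 over the alternatives, array weights and each probe added after seeing the data. The counts of means above and below 0 per family under other settings, given with each family, were chosen after seeing the data. Of the 34 coat, SNARE and sorting genes given on all 3 arrays, 10 changed sign under at least 1 alternative. With arrays left out in turn the means ran from -0.31 to 0.29 for Ap4s1, -0.32 to 0.25 for Sec11c, -0.35 to 0.021 for Copz1, -0.094 to 0.0031 for Trappc2l, -0.22 to 0.11 for Cltc, -0.496 to 0.039 for Sec22b, -0.024 to 0.21 for Stx12 (-0.0003 without array 3), -0.16 to 0.21 for Trappc13, -0.057 to 0.302 for Trappc6b and -0.73 to 0.25 for Vps37a. After scaling Ap4s1 had -0.048 and Trappc13 -0.0004, and after quantile normalization Ap4s1 had -0.017. With array weights Ap4s1 had -0.34, Cltc 0.12 and Trappc13 -0.12. With arrays 2 and 3 averaged Sec11c had 0.16, Sec22b 0.019, Stx12 -0.012 and Vps37a 0.18. With genes on at least 2 arrays Vps37a had 0.0297. Each array compared both fractions directly, so testing its ratio against 0 already paired them within the array.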
